A study of Mus musculus with 12 samples.

Results

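Rhox6 and Rhox9 are 2 of the reproductive homeobox (Rhox) genes, a mouse family that lies as a cluster on the X chromosome. They were taken from the deposited expression table by their symbols, as 2 of its 12955 genes, and were followed in 12 libraries of primordial germ cell-like cells (PGCLCs). PGCLCs are cells grown in culture to resemble the embryo's germline founders, which give rise to gametes. They were made from J1 male mouse embryonic stem cells, and cells were sorted from embryoid bodies with CD61 (the product of Itgb3) and SSEA1 as surface markers. The 12 libraries formed 6 groups of 2: OE and EV cells at day 6, cells given dTAG13 or DMSO at day 2 for 2 days of treatment, and OE and EV cells at day 2. The series concerns Tex10, which is known for roles in the maturation of ribosomes and in pluripotent cells. The labels use EV and OE as abbreviations only. dTAG13 is a degrader compound, which leads a protein that carries the matching tag to the proteasome. DMSO is the solvent control. The labels do not say whether the cells of a group were 1 clone or several, or whether its 2 libraries came from separate cultures, so p values measure the spread between these libraries, which may be technical.

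Rhox proteins are transcription factors with a homeodomain, the DNA-binding fold that they share with the Hox proteins. Genes of the cluster are known for expression in testis, ovary, placenta and germ cells, and several are known to be repressed by DNA methylation. Rhox6 and Rhox9 are close relatives that are known from placenta and from germ cells. The best known member of the family is Rhox5, also called Pem, which is made in Sertoli cells, in placenta and in cultured embryonic stem cells.

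In the GRCm38 assembly (mm10, GENCODE M21 annotation), Rhox6 (XLOC_023129 in the table) is on chromosome X from 37826910 to 37829857, on the plus strand, with 4 exons in its 1 annotated transcript. Rhox9 (XLOC_023637) is on chromosome X from 37899097 to 37901770, on the minus strand, with 2 annotated transcripts. The facing ends of the genes are 69.2 kb apart. The annotation names 34 protein-coding Rhox genes, of which 6 were in the table: Rhox2a, Rhox5, Rhox6, Rhox9, Rhox10 and Rhox13. Rhox7a, Rhox8 and Rhox7b, annotated between Rhox6 and Rhox9, were not analysed here. How reads that match more than 1 Rhox gene were assigned is not given in the sources used here, so the division of reads between these relatives is uncertain.

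Values are FPKM, fragment numbers scaled by transcript length and by the size of the library, and so are levels per length. Changes are differences of log2(FPKM + 1), which understate changes of low genes. An adjusted p below 0.05, from limma with Benjamini-Hochberg adjustment over 12059 tested genes, counted as passing. Depth per library is not stated in the sources used here. Tex10 was at 259 to 269 FPKM in day 6 OE against 65.7 to 81.5 in day 6 EV libraries, at 36.5 to 45.2 in dTAG13 against 56.8 to 61.7 in DMSO libraries, and at 378 to 403 in day 2 OE against 119 to 145 in day 2 EV libraries. All 12 listed germ cell specification markers were in the table, with summed levels of 1039 to 1850 FPKM per library. Ifitm3 and Ifitm1 weighed heavily in these sums, at means of 646 and 404 FPKM in day 2 EV cells, where Prdm1 averaged 6.32 FPKM. At most 1 of the 12 markers was under 1 FPKM in both libraries of a group. Itgb3, which encodes the sorting marker CD61, was low at day 2. It read 0 to 1.29 FPKM in the day 2 libraries, with the 0 in 1 dTAG13 library, and 1.72 to 4.39 FPKM in the day 6 libraries. The summed trophoblast markers, which matter because Rhox6 and Rhox9 are also placental genes, were at 6.47 to 39.1 FPKM, and 9 of the 15 listed were in the table. The dTAG13 replicate 1 library stood apart: it listed 2008 genes at 0, or 15.5% of the table, against 18 to 127 genes in the other 11 libraries.

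Both genes were present at 1 FPKM or more in all 12 libraries. Rhox6 read 1.76 and 1.44 FPKM in day 6 OE, 3.38 and 7.21 in day 6 EV, 20.7 and 35.8 in dTAG13, 55.2 and 43.1 in DMSO, 16.0 and 8.08 in day 2 OE and 32.4 and 16.3 in day 2 EV libraries. Rhox9 read 4.38 and 4.28 FPKM in day 6 OE, 7.89 and 7.84 in day 6 EV, 21.4 and 37.9 in dTAG13, 74.4 and 45.6 in DMSO, 17.2 and 11.3 in day 2 OE and 32.9 and 38.5 in day 2 EV libraries. Each of the 4 day 6 libraries lay below each of the 8 day 2 libraries for both genes. The share of all genes with such a split was not computed. Both day 6 libraries lay below both day 2 libraries for 33.0% of genes in EV and 35.9% in OE cells. The lowest levels of both were in day 6 OE and the highest in DMSO.

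By group mean, Rhox6 was at 49.2 ± 8.59 FPKM in DMSO, 28.2 ± 10.7 in dTAG13, 24.3 ± 11.4 in day 2 EV, 12.03 ± 5.59 in day 2 OE, 5.30 ± 2.71 in day 6 EV and 1.60 ± 0.229 in day 6 OE (SD, n = 2 each). The order for Rhox9 was 60.0 ± 20.4 FPKM in DMSO, 35.7 ± 3.95 in day 2 EV, 29.6 ± 11.7 in dTAG13, 14.3 ± 4.16 in day 2 OE, 7.86 ± 0.0329 in day 6 EV and 4.33 ± 0.0732 in day 6 OE (SD, n = 2 each). The orders differ only in the places of dTAG13 and day 2 EV, which are neighbours whose libraries overlapped for each gene. No other neighbouring groups overlapped, and how many genes show as few overlaps was not counted. Ranked within a library, Rhox6 had 78.6% and 82.4% of the table's genes above it in the day 6 OE libraries and 16.4% to 19.4% in the DMSO libraries. Rhox9 had 63.5% and 64.2% of genes above it in day 6 OE and 13.0% to 18.4% in DMSO libraries.

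**Figure D1:**
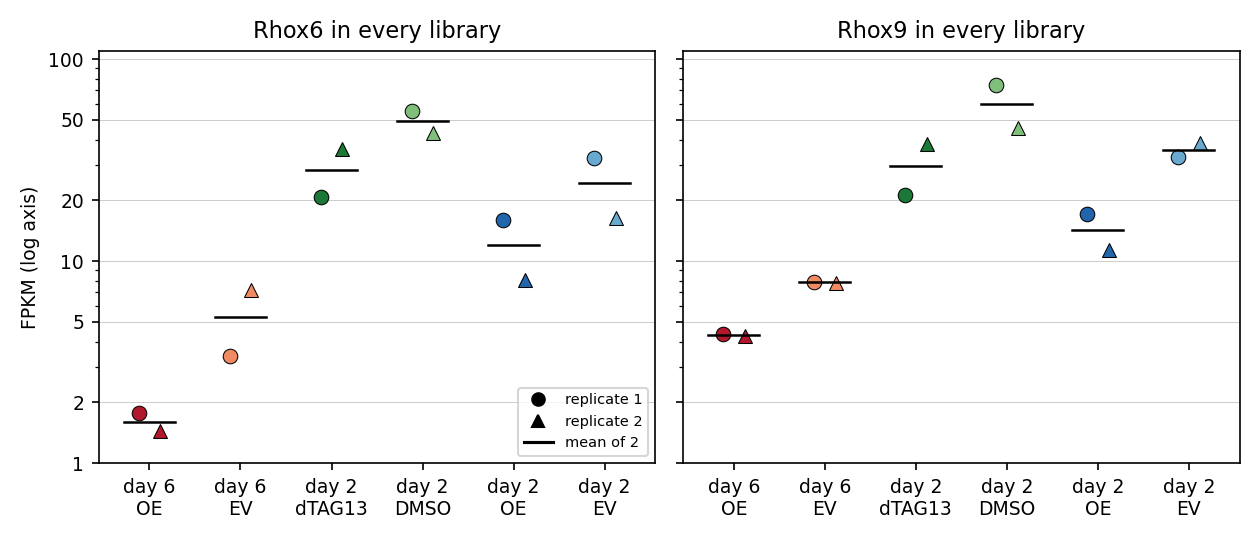
FPKM of Rhox6 and Rhox9 on a log axis in each of the 12 libraries (circles for replicate 1, triangles for replicate 2), with the mean of each group of 2 (lines). Day 6 libraries lie at 1.44 to 7.89 FPKM and day 2 libraries at 8.08 to 74.4 FPKM, with day 6 OE lowest and DMSO highest for both genes.

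Day 6 was set against day 2 in EV cells to ask how the genes differed between the earlier and later sorted cells. Both genes fell. Rhox6 averaged 5.30 FPKM in day 6 EV and 24.3 FPKM in day 2 EV cells, a log2 change of -2.001 (SE 0.43, 95% interval -2.96 to -1.04, adjusted p = 0.00867). Rhox9 averaged 7.86 FPKM in day 6 EV and 35.7 FPKM in day 2 EV cells, a log2 change of -2.05 (SE 0.30, 95% interval -2.72 to -1.37, adjusted p = 0.00152). Of all genes tested, 10.5% were called lower and 13.3% higher in this comparison. Both day 6 libraries lay below both day 2 libraries for 33.0% of genes and above them for 39.9%. By size of change the pair stood near the bottom of the table: Rhox9 was number 30 and Rhox6 number 32 from the lowest of 12059 genes, where the median gene changed by 0.04. The 2 day 2 EV libraries of Rhox6 were 32.4 and 16.3 FPKM, and its call was lost without day 2 EV replicate 1 (-1.52, adjusted p = 0.0843) or without day 6 EV replicate 1 (-1.55, adjusted p = 0.0915). The call for Rhox9 held without each library in turn.

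In OE cells both genes also fell at day 6. Rhox6 averaged 1.60 FPKM in day 6 OE and 12.03 FPKM in day 2 OE cells, a log2 change of -2.26 (SE 0.43, 95% interval -3.22 to -1.30, adjusted p = 0.00338). Rhox9 averaged 4.33 FPKM in day 6 OE and 14.3 FPKM in day 2 OE cells, a log2 change of -1.49 (SE 0.30, 95% interval -2.16 to -0.81, adjusted p = 0.00458). Here 14.7% of genes were called lower and 17.5% higher. Both day 6 libraries lay below both day 2 libraries for 35.9% of genes and above them for 46.0%. Without day 2 OE replicate 1 the adjusted p of Rhox9 was 0.0542, with a change of -1.21. In these bulk samples, fewer cells that express a gene and less of its RNA per cell cannot be told apart.

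OE was set against EV at each day to ask how the pair differed with the state of Tex10. At day 2, both OE libraries lay below both EV libraries for each gene, but neither change passed the threshold. Rhox6 was at 16.0 and 8.08 FPKM in day 2 OE and 32.4 and 16.3 FPKM in day 2 EV libraries, so that the nearest libraries of the groups were almost level. Its log2 change was -0.95 (95% interval -1.91 to 0.01, adjusted p = 0.413). Leaving out single libraries, it was -0.47 without day 2 EV replicate 1, -0.50 without day 2 OE replicate 2, -1.43 without day 2 EV replicate 2 and -1.40 without day 2 OE replicate 1. Rhox9 was at 17.2 and 11.3 FPKM in day 2 OE and 32.9 and 38.5 FPKM in day 2 EV libraries, and its log2 change was -1.29 (95% interval -1.96 to -0.61, adjusted p = 0.0958). In this comparison 0.406% of genes were called lower and 0.440% higher. Both OE libraries lay below both EV libraries for 22.6% of genes and above them for 31.2%. By size of change Rhox9 was number 29 and Rhox6 number 115 from the lowest of 12059 genes. The call depends on which libraries share the estimate of spread: for Rhox9 the adjusted p was 0.000338 with only the groups compared, 0.00397 with sample quality weights and 0.00195 without dTAG13 replicate 1, and for Rhox6 it was 0.0392 with only the groups compared.

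At day 6 the pair was again lower in every OE library than in every EV library, and again neither change passed. Rhox6 read 1.76 and 1.44 FPKM in day 6 OE and 3.38 and 7.21 FPKM in day 6 EV libraries, a log2 change of -1.21 (95% interval -2.17 to -0.25, adjusted p = 0.171). Rhox9 read 4.38 and 4.28 FPKM in day 6 OE and 7.89 and 7.84 FPKM in day 6 EV libraries, a log2 change of -0.73 (95% interval -1.41 to -0.06, adjusted p = 0.238). The libraries of a group lay close together for Rhox9, and those of day 6 EV were far apart for Rhox6. At day 6, 1.79% of genes were called lower and 1.92% higher. Both OE libraries lay below both EV libraries for 29.5% of genes and above them for 39.3%. Both genes passed with only the groups compared (adjusted p = 0.00901 for Rhox6 and 0.00382 for Rhox9), with sample quality weights (0.00381 and 0.00771 for the same genes) and without dTAG13 replicate 1 (0.0211 and 0.0217).

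The size of the OE effect was compared between the days directly. The day 6 effect minus the day 2 effect was -0.26 for Rhox6 (SE 0.61, 95% interval -1.62 to 1.11, adjusted p = 0.944) and 0.56 for Rhox9 (SE 0.43, 95% interval -0.40 to 1.51, adjusted p = 0.730). Of all genes 0.232% passed that test in either direction. Both intervals reach beyond 1 in size on the log2 scale, so the 2 days are not shown to have like effects.

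dTAG13 was set against DMSO at day 2. Both genes were lower in both dTAG13 libraries than in both DMSO libraries, and neither change passed. Rhox6 was at 20.7 and 35.8 FPKM in dTAG13 and 55.2 and 43.1 FPKM in DMSO libraries, with a log2 change of -0.82 (95% interval -1.78 to 0.15, adjusted p = 0.221). Rhox9 was at 21.4 and 37.9 FPKM in dTAG13 and 74.4 and 45.6 FPKM in DMSO libraries, with a log2 change of -1.01 (95% interval -1.68 to -0.33, adjusted p = 0.0570). The median of all tested genes was also lower in dTAG13, by a log2 change of -0.13, and relative to it the changes were -0.69 for Rhox6 and -0.88 for Rhox9. In this comparison 8.21% of genes were called lower and 4.01% higher. Both dTAG13 libraries lay below both DMSO libraries for 34.7% of genes and above them for 13.8%. The lower dTAG13 value of each gene came from replicate 1, the library with many genes at 0. Without it the changes were -0.44 for Rhox6 (adjusted p = 0.472) and -0.61 for Rhox9 (adjusted p = 0.101), and without dTAG13 replicate 2 they were -1.20 (adjusted p = 0.0242) and -1.41 (adjusted p = 0.000388).

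The DMSO and EV groups of day 2, which serve as the controls of the other comparisons, were also set side by side. For each gene both DMSO libraries lay above both EV libraries. Rhox6 was at 55.2 and 43.1 FPKM in DMSO and 32.4 and 16.3 FPKM in EV libraries, a log2 change of 1.05 (95% interval 0.09 to 2.01, adjusted p = 0.508). Rhox9 was at 74.4 and 45.6 FPKM in DMSO and 32.9 and 38.5 FPKM in EV libraries, a log2 change of 0.70 (95% interval 0.02 to 1.37, adjusted p = 0.549). Neither passed, in a comparison where 0.249% of genes were called higher and 0.141% were called lower. Both DMSO libraries lay above both EV libraries for 29.5% of genes and below them for 22.7%. Leaving out single libraries of these groups, the change of Rhox6 was 0.57 without EV replicate 2 and 1.53 without EV replicate 1, and that of Rhox9 was 0.35 without DMSO replicate 1 and 1.04 without DMSO replicate 2. The dTAG13 libraries, at 20.7 to 37.9 FPKM for the pair, overlapped in level with the day 2 EV libraries, at 16.3 to 38.5 FPKM, and not with their own DMSO controls, at 43.1 to 74.4 FPKM. The cells, treatment and any handling that distinguish DMSO from EV cannot be told apart.

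**Figure D2:**
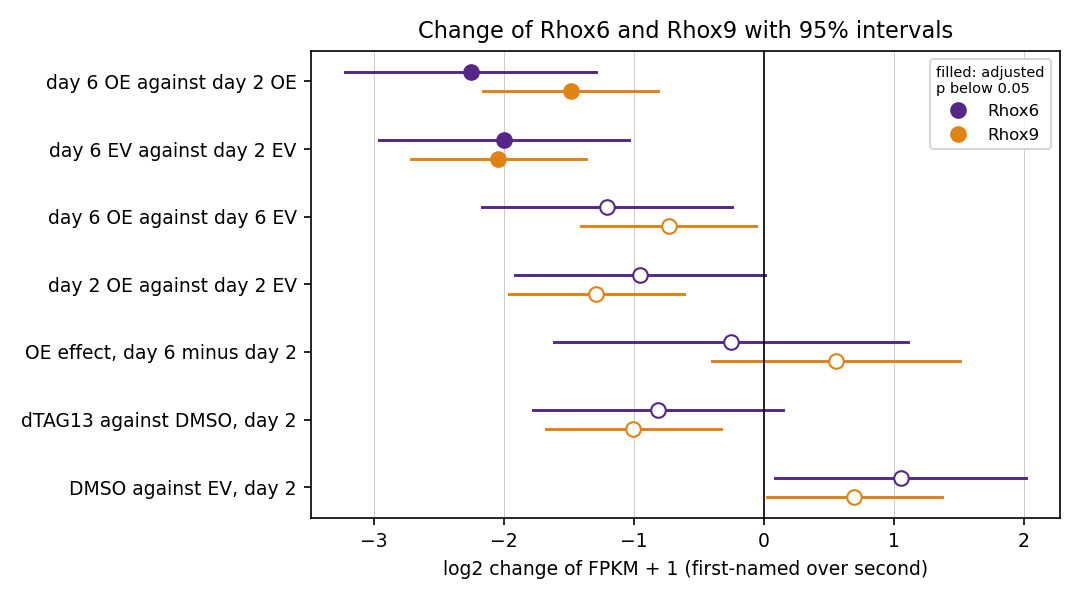
Log2 changes of Rhox6 and Rhox9 (points) with 95% intervals (lines) in the 6 comparisons of 2 groups and in the difference of the OE effects. Filled points, the day 6 against day 2 changes of -1.49 to -2.26, passed the threshold of an adjusted p below 0.05, and open points did not.

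The pair differed in level within libraries. Rhox6 was below Rhox9 in 12 of 12 libraries, and its share of their summed FPKM was 28.7% and 25.2% in day 6 OE, 30.0% and 47.9% in day 6 EV, 49.2% and 48.6% in dTAG13, 42.6% and 48.6% in DMSO, 48.2% and 41.7% in day 2 OE and 49.7% and 29.7% in day 2 EV libraries. The genes were thus almost level in most day 2 libraries, and Rhox6 was clearly the lower of them in both day 6 OE libraries and in 1 library each of day 6 EV and day 2 EV. As the log2 ratio of Rhox6 to Rhox9 (each FPKM + 1), the day 6 OE group stood at -1.04 ± 0.11, the dTAG13 group at -0.06 ± 0.03 and the other groups between -0.61 and -0.25 (SD, n = 2). The ratio is given as a description, without a test, and it depends on the added constant where levels are low, as in day 6 OE.

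**Figure D3:**
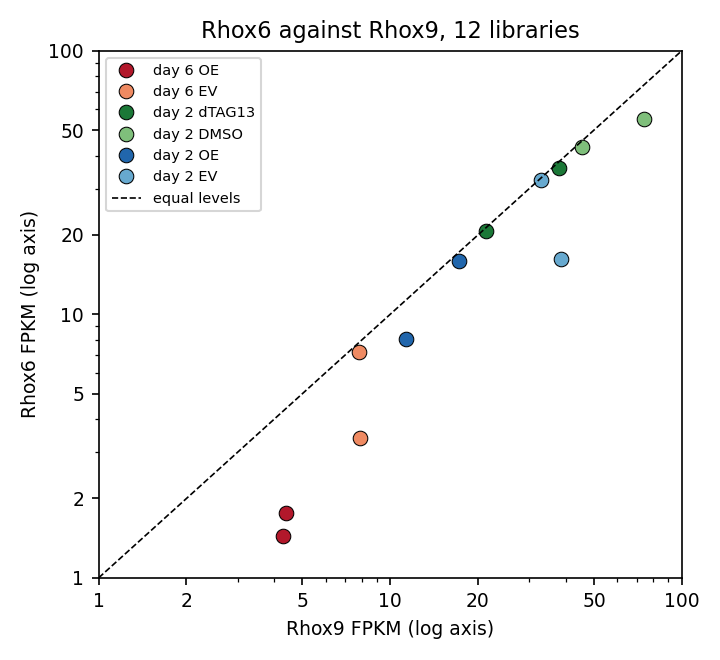
FPKM of Rhox6 against FPKM of Rhox9, both on log axes, with a point for each of the 12 libraries and a line where the genes are equal. All 12 points lie on the side of higher Rhox9, and the day 6 OE points, at 1.76 and 1.44 FPKM of Rhox6, lie farthest down.

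Of the other 4 Rhox genes of the table, 0 passed as lower at day 6 in the fit of all libraries. Rhox5 read 36.0 and 29.9 FPKM in day 6 OE, 53.3 and 65.3 in day 6 EV, 0.202 and 9.37 in dTAG13, 14.6 and 14.5 in DMSO, 45.9 and 43.1 in day 2 OE and 21.6 and 21.8 in day 2 EV libraries. It was thus above both genes in every day 6 library and in every day 2 OE library, and below both in every DMSO and dTAG13 library. Rhox5 is the nearest gene of the table to Rhox6. Its change in day 6 EV against day 2 EV cells was 1.404 (adjusted p = 0.188) and in day 6 OE against day 2 OE cells -0.43 (adjusted p = 0.691). At day 2, Rhox5 was higher in both OE than in both EV libraries (1.004, adjusted p = 0.683), where Rhox6 and Rhox9 were lower. Its spread came mostly from the dTAG13 pair, and without dTAG13 replicate 1 the adjusted p was 2.12e-06 for day 6 EV against day 2 EV, 0.00946 for day 6 OE against day 2 OE and 0.000374 for day 2 OE against day 2 EV.

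Rhox2a, Rhox10 and Rhox13 were low. Rhox2a read 1.41 and 0.887 FPKM in day 6 OE, 1.71 and 1.87 in day 6 EV and at most 0.564 FPKM in the 8 day 2 libraries. It rose at day 6, by 1.16 in EV (adjusted p = 0.00584) and by 0.90 in OE cells (adjusted p = 0.0141), but it met the minimum of 1 FPKM only in day 6 libraries, so that entry into the test required a high day 6 level. Without day 2 EV replicate 2 its EV change was 0.83 (adjusted p = 0.0504), and without day 2 OE replicate 1 or day 6 OE replicate 1 its OE changes were 0.80 (adjusted p = 0.109) and 0.72 (adjusted p = 0.111). Rhox10 stood at 1.99 and 3.19 FPKM in day 6 EV and 0.349 and 0.897 FPKM in day 2 EV libraries. Its change of 1.15 passed (adjusted p = 0.0300), but it was lost without any 1 of those 4 libraries (adjusted p of 0.0575 to 0.189). Rhox13 read 4.69 and 3.36 FPKM in day 6 OE and 1.77 and 1.46 FPKM in day 6 EV libraries, a change of 0.93 (adjusted p = 0.157). That change passed with only the groups compared (adjusted p = 0.00431), with sample quality weights (0.00396) and under the replicate block (0.0498). In the fit of all libraries, 1 of the 5 genes other than Rhox2a rose and 2 fell in day 6 EV against day 2 EV cells. In day 6 OE against day 2 OE cells 0 rose and 2 fell, and 0 of the 6 genes passed in the other comparisons. The genes that fell were Rhox6 and Rhox9 in both. The fit without dTAG13 replicate 1 called many more genes of the whole table, as given below, so its counts cannot be judged by the shares above. Without dTAG13 replicate 1 and with Rhox2a included, the counts were 3 higher and 2 lower in EV cells, and 3 higher and 3 lower in OE cells, with Rhox5 the added lower gene.

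**Figure D4:**
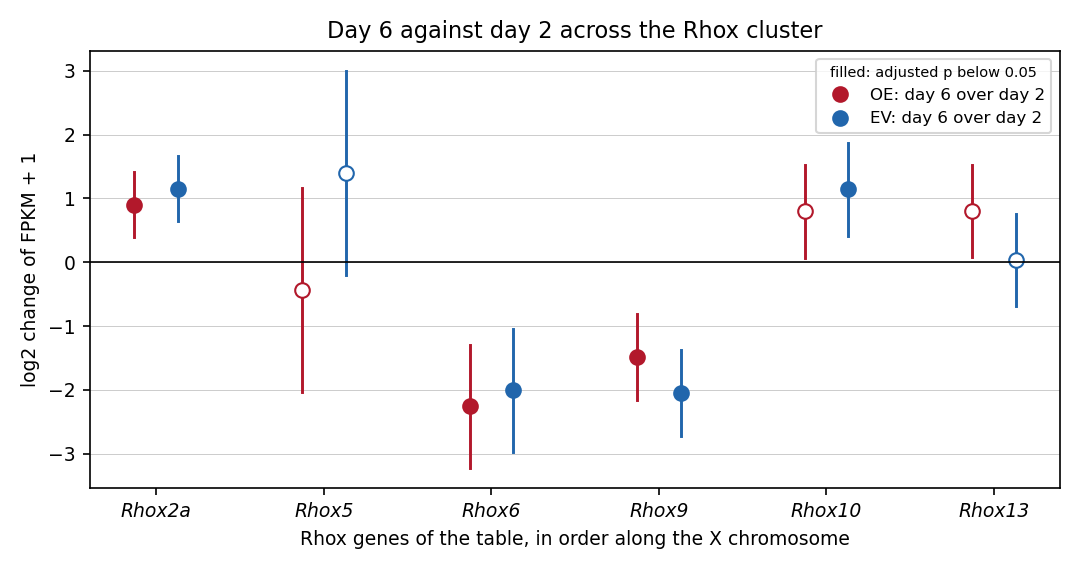
Log2 change at day 6 against day 2 (points) with 95% intervals (lines) for the 6 Rhox genes of the table, in OE and in EV cells, in their order along the X chromosome. Filled points passed the threshold, and Rhox6 and Rhox9, at -1.49 to -2.26, lie below 0 with intervals that do not reach it, in both OE and EV cells.

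The nearest other genes of the table were set beside the pair. On the side of Rhox6 these were Nkap, Ndufa1 and Rnf113a1, and on the side of Rhox9 they were Lamp2, Cul4b and Mcts1. In day 6 EV against day 2 EV cells their changes ran from -0.79 to 0.71. Of these 6 neighbours 1 was higher and 1 lower, where 13.3% of all genes rose and 10.5% fell. Lamp2, which encodes a lysosomal membrane protein, rose by 0.71 (adjusted p = 0.0140), and Cul4b, a ubiquitin ligase scaffold, fell by 0.79 (adjusted p = 0.0188). Lamp2 lost its call without day 2 EV replicate 1 or either day 6 EV library (adjusted p of 0.0763 to 0.108), and Cul4b without day 2 EV replicate 2 or day 6 EV replicate 1 (adjusted p of 0.144 and 0.157). Their changes in day 6 OE against day 2 OE cells ran from -0.45 to 1.70. Here 2 of 6 were higher and 0 lower, where 17.5% of all genes rose and 14.7% fell. The 2 were Lamp2 (1.70, adjusted p = 9.83e-05) and Nkap (0.83, adjusted p = 0.0374). Nkap lost its call without any 1 of the 4 libraries (adjusted p of 0.106 to 0.181). In the other 4 comparisons of 2 groups, 0 of the 6 passed. The median change of the 389 tested X-linked genes was 0.04 in EV cells and 0.10 in OE cells between the days, close to that of all genes, 0.04 and 0.08.

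The genes whose pattern was most like that of the pair were sought by Pearson's r of log2(FPKM + 1) over the 12 libraries, among 7521 genes with a mean of at least 5 FPKM. These values are descriptions over libraries that share groups. Rhox6 and Rhox9 had an r of 0.962 with each other, which placed Rhox9 as number 3 for Rhox6 and Rhox6 as number 5 for Rhox9. The 8 genes most like Rhox6 were Romo1 (0.964), Ptk2b (0.964), Rhox9, Wnt7b (0.956), Lgals1 (0.952), Arhgdib (0.951), Cpsf4l (0.950) and Zswim7 (0.949). The 8 most like Rhox9 were Wnt7b (0.972), Nanos3 (0.969), Romo1 (0.967), Aldh3b2 (0.967), Rhox6, Cpsf4l (0.957), Lgals1 (0.953) and Acad9 (0.952). Romo1, Wnt7b, Lgals1 and Cpsf4l were on both lists. Nanos3 encodes an RNA-binding protein needed to maintain primordial germ cells, Wnt7b a secreted Wnt ligand and Lgals1 the lectin galectin-1. Nanos3 averaged 3.36 ± 0.737 FPKM in day 6 OE, 7.76 ± 2.07 in day 6 EV, 47.4 ± 13.4 in dTAG13, 52.6 ± 3.69 in DMSO, 14.8 ± 5.34 in day 2 OE and 45.7 ± 11.2 in day 2 EV cells (SD, n = 2 each). Wnt7b averaged 0.664 ± 0.180 FPKM in day 6 OE, 1.21 ± 0.0471 in day 6 EV, 10.3 ± 4.27 in dTAG13, 12.9 ± 1.90 in DMSO, 5.07 ± 2.05 in day 2 OE and 10.8 ± 1.13 in day 2 EV cells (SD, n = 2 each). Like the pair, both were lowest in day 6 OE and highest in DMSO, and lower in day 2 OE than in the other day 2 groups.

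**Figure D5:**
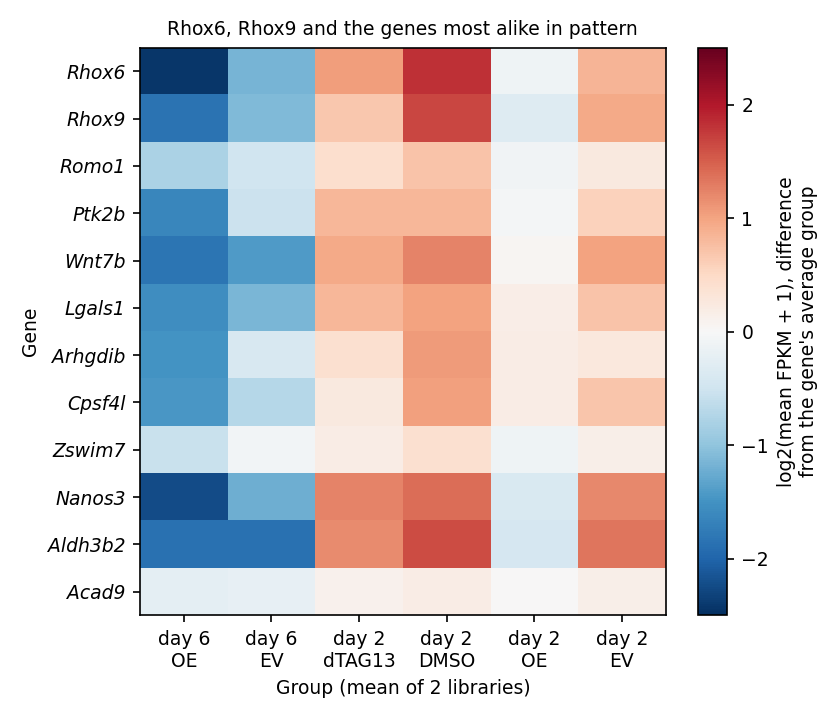
Heat map of Rhox6, Rhox9 and the other genes on either list (rows) over the 6 groups (columns), coloured by log2(mean FPKM + 1) of the group less the gene's average over the groups. Rhox6, Rhox9, Romo1, Wnt7b, Lgals1, Cpsf4l and Nanos3 are bluest, or lowest, in day 6 OE and reddest, or highest, in DMSO, while Ptk2b is about level in dTAG13 and DMSO (16.0 and 15.9 FPKM) and Aldh3b2 in day 6 OE and day 6 EV (0.716 and 0.708 FPKM).

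Germ cell specification genes moved in both directions where Rhox6 and Rhox9 fell. In day 6 EV against day 2 EV cells, 1 of 12 tested members rose and 5 fell, with a median change of -0.21, where 13.3% of all genes rose and 10.5% fell. Nanos3 fell by 2.42 (adjusted p = 0.000626) and Dppa3, a factor that protects maternal methylation in the zygote, fell by 1.64 (adjusted p = 0.000413), while Kit, the receptor for stem cell factor, rose by 1.26 (adjusted p = 0.000559). In day 6 OE against day 2 OE cells 5 rose and 4 fell, where 17.5% of all genes rose and 14.7% fell, among them Nanos3, which fell by 1.82 (adjusted p = 0.00148), and Kit, which rose by 1.89 (adjusted p = 3.65e-05). In day 2 OE against day 2 EV cells 0 rose and 1 fell, where 0.440% of all genes rose and 0.406% fell. The 1 was Nanos3, which fell by 1.59 (adjusted p = 0.0462). That call was lost under the replicate block (adjusted p = 0.0542) and without any 1 of the 4 libraries (changes of -1.94 to -1.24). Between day 6 OE and day 6 EV cells 2 rose in OE and 0 fell, where 1.92% of all genes rose and 1.79% fell. The 2 were Dppa3, by 1.24 (adjusted p = 0.00974), and Kit, by 1.08 (adjusted p = 0.00712). Dppa3 lost that call without any 1 of the 4 libraries (adjusted p of 0.0531 to 0.0961), and Kit without day 6 EV replicate 2 or either day 6 OE library (adjusted p of 0.0896 to 0.1001). With dTAG13 3 rose and 3 fell, where 4.01% of all genes rose and 8.21% fell. The largest change among them was that of Lin28a, which fell by 2.05 (adjusted p = 0.000709, or 0.306 with only the groups compared). With DMSO against EV 0 of the 12 passed. Many more genes of the whole table were called without dTAG13 replicate 1, so the counts that follow cannot be judged by the shares above. Without dTAG13 replicate 1, 2 rose and 3 fell in day 2 OE against day 2 EV, 6 rose and 2 fell in day 6 OE against day 6 EV, 3 rose and 5 fell in day 6 EV against day 2 EV cells, and 2 rose and 5 fell with dTAG13.

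Because genes of the cluster are known to be repressed by DNA methylation, the genes that write, read or remove it were described beside the pair. Of 11 tested, 0 rose and 4 fell in day 6 EV against day 2 EV cells, with a median change of -0.26, where 13.3% of all genes rose and 10.5% fell. Tet1, an enzyme that oxidises methylated cytosine, and Trim28, a corepressor that works with Zfp57, were among the 4. Each lost its call without single libraries, Trim28 without any 1 of the 4 (adjusted p of 0.121 to 0.148) and Tet1 without day 2 EV replicate 2 or either day 6 EV library (adjusted p of 0.0664 to 0.296). Dnmt3b, a de novo DNA methyltransferase, averaged 23.9 ± 1.38 FPKM in day 6 EV and 76.1 ± 5.32 FPKM in day 2 EV cells (SD, n = 2 each) and fell by 1.63 (adjusted p = 5.88e-05). In day 6 OE against day 2 OE cells 0 rose and 5 fell, where 14.7% of all genes fell, led by Dnmt3b, which fell by 2.66 (adjusted p = 4.22e-06), and its cofactor Dnmt3l, which fell by 2.11 (adjusted p = 2.35e-05). A further comparison, day 6 OE against day 6 EV cells, had 2 that fell, where 1.79% of all genes fell. The 2 were Dnmt3l, by 1.74 (adjusted p = 0.00106), and Dnmt3b, by 0.90 (adjusted p = 0.00712). Dnmt3b lost that call without day 6 EV replicate 2 or either day 6 OE library (adjusted p of 0.0565 to 0.0997). With dTAG13 4 fell, where 8.21% of all genes fell, led by Zfp57, an imprint-protecting factor, by 1.42 (adjusted p = 0.00144, or 0.306 with only the groups compared). In DMSO against EV 1 fell, where 0.141% of all genes fell. It was Dnmt3b, by 0.82 (adjusted p = 0.0254), a call lost without any 1 of the 4 libraries (changes of -0.90 to -0.74). In day 2 OE against day 2 EV 0 of the 11 passed. Leaving out dTAG13 replicate 1, 0 rose and 7 fell with dTAG13, 2 rose and 3 fell in day 6 OE against day 6 EV, 1 rose and 6 fell in day 6 EV against day 2 EV, and 1 rose and 7 fell in day 6 OE against day 2 OE cells. Calls over all genes also rose in that fit, so these counts cannot be judged by the shares above. Methylation at the Rhox genes was not analysed here.

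Germline genes, many of which are repressed by promoter methylation in somatic cells, were followed over the same groups. Of 24 tested, 4 (Taf7l, Slc25a31, Asz1 and Tuba3b) met the minimum of 1 FPKM in 2 libraries only with the help of day 6 libraries, so that a day 6 rise was favoured by their entry. Of the other 20, 4 rose and 0 fell in day 6 EV against day 2 EV cells, where 13.3% of all genes rose and 10.5% fell. Between day 6 OE and day 2 OE cells 12 of those 20 rose and 1 fell, where 17.5% rose and 14.7% fell. Stra8, a regulator of meiotic entry, rose by 2.68 in EV (adjusted p = 0.000240) and by 4.22 in OE cells (adjusted p = 1.38e-05), and Dazl, a germ cell RNA-binding protein, rose by 3.05 in OE cells (adjusted p = 0.000973). Set against day 6 EV, day 6 OE cells had 5 of the 24 that rose and 1 that fell, where 1.92% and 1.79% of all genes did so, among them Tuba3b, a testis tubulin, which rose by 2.18 (adjusted p = 0.00150, or 0.0545 with a pseudocount of 0.1). In dTAG13 against DMSO 3 rose and 1 fell, where 4.01% and 8.21% of all genes did so. In day 2 OE against day 2 EV 1 rose, where 0.440% of all genes rose, and 0 fell. In DMSO against EV 0 passed. The counts that follow cannot be judged by these shares, because calls over all genes also rose without dTAG13 replicate 1. They also include Taf7l, Slc25a31, Asz1 and Tuba3b, whose entry favoured a day 6 rise. Without dTAG13 replicate 1, and over all 24, 15 rose and 5 fell in day 6 EV against day 2 EV, 21 rose and 2 fell in day 6 OE against day 2 OE, and 13 rose and 1 fell in day 6 OE against day 6 EV cells.

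Markers of other cell types were followed over the same groups. Summed trophoblast markers were at 16.8 to 17.2 FPKM in day 6 OE, 13.6 to 13.9 in day 6 EV, 12.3 to 39.1 in dTAG13, 15.2 to 17.4 in DMSO, 6.47 to 7.16 in day 2 OE and 10.1 to 10.4 in day 2 EV libraries. The sums were thus lower in day 2 OE than in day 2 EV, as were Rhox6 and Rhox9. They were higher at day 6 than at day 2 in both OE and EV, where Rhox6 and Rhox9 were lower. Single genes weigh heavily in such sums: Ascl2 averaged 5.24 FPKM in day 6 EV and 1.09 FPKM in day 2 EV cells. The median change of the 7 tested markers between the days was -0.22 in EV and 0.59 in OE cells. Of 7 tested trophoblast markers, 1 rose with dTAG13 and 1 with DMSO against EV, where 4.01% and 0.249% of all genes rose. It was Hand1 in both, and 0 passed in the other comparisons. Hand1 lost its call in DMSO against EV without any 1 of the 4 libraries (adjusted p of 0.0535 to 0.166) and under the replicate block (adjusted p = 0.0903). With dTAG13 it lost its call without either DMSO library (adjusted p of 0.0533 and 0.129) and with only the groups compared (adjusted p = 0.450). Without dTAG13 replicate 1, 3 rose and 2 fell in day 6 EV against day 2 EV, 5 rose and 1 fell in day 6 OE against day 2 OE, and 0 rose and 2 fell in day 2 OE against day 2 EV cells. Calls over all genes also rose in that fit, so these counts cannot be judged by the shares of the fit of all libraries. At least 1 dTAG13 library listed Eomes, Krt7, Ascl2, Plac1, Gcm1 and Esx1 at 0. Primitive endoderm markers, with 3 tested, summed to 16.7 to 25.4 FPKM at day 6 and to at most 14.0 FPKM at day 2. Of them 2, Gata4 and Amn, rose in each day comparison, where 13.3% (EV) and 17.5% (OE) of all genes rose. Amn met the minimum of 1 FPKM in 2 libraries only with the help of day 6 libraries, so that a day 6 rise was favoured by its entry. With dTAG13 1 of the 3 fell, where 8.21% of all genes fell. Mesoderm markers, with 2 tested, summed to at most 13.0 FPKM, and 1 rose in each of 3 comparisons. Hand1, which is on both lists, rose in dTAG13 against DMSO and in DMSO against EV (4.01% and 0.249% of all genes). Snai1 rose in day 6 OE against day 2 OE (17.5%). Whether any of these cells had a part in the levels of Rhox6 and Rhox9 was not tested.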

How the data were processed

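Poly(A) RNA of the 12 libraries was sequenced, per the labels. Per the submitters' processing notes, FastQC 0.10.1, Trim Galore 0.6.3, cutadapt (version not given), STAR 2.7.6a, Cufflinks 2.2.1 and mm10 were used. The authors deposited FPKM values for 12955 genes. The deposited FPKM carry an added 1, as read from how they are written: 7 or more digits were found in 90.1% of values that lie between 1.1 and 2 and in 0% of those from 2 to 10, and the lowest value was 1. That 1 was subtracted. Depth is not stated, and neither is the precision of low values. The FPKM of a library summed to 550230 to 673435.

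Groups followed the labels. A title that spells the compound differently was read by its treatment field, which names dTAG13. The 12059 genes that reached 1 FPKM in 2 libraries entered limma 3.58.1 (R 4.3.3) as log2(FPKM + 1). The fit used a trended prior variance and 1 model of the 6 groups (6 residual and 3.86 prior degrees of freedom). Adjusted p values (Benjamini-Hochberg) run over all genes tested, with a threshold of 0.05. Compared were day 6 OE with day 6 EV, day 2 OE with day 2 EV, the difference of those effects, dTAG13 against DMSO, day 6 against day 2 in EV and in OE, and DMSO against EV. Comparisons that use the same group, such as day 2 EV, share its libraries. The analysis was tested on simulated data. Same-numbered libraries of the groups did not deviate together (correlations of -0.13 to 0.25 over 15 pairs of groups), so the numbers were not taken to pair samples.

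Members and the 10 gene lists were chosen with earlier results of these data known. Named genes were Rhox6, Rhox9 and the other Rhox genes of the table, the 8 genes most like each of the pair in pattern, the 5 nearest table genes on each side, Tex10, and up to 3 passing members of each list by size of change, of which some are left out here. Positions came from GENCODE M21 by symbol. Alternatives covered the pseudocount (0.1 and 5), no filter, no trend, sample quality weights, a replicate block, scaling by quantiles or by median ratios, fits of only the groups compared and leaving out each library. Counts without dTAG13 replicate 1 for the lists, and a crossed block, were added after the data were seen. Python 3.11.15, pandas 2.3.3, numpy 2.4.6 and matplotlib 3.10.9 were used.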

Additional observations from a re-analysis of the deposited data

Results flagged for a closer look

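Rhox5, the neighbour of Rhox6, was higher in both OE than in both EV libraries at day 2 and lower in both at day 6. Of all genes, 31.2% were so placed at day 2 and 29.5% at day 6. The share of genes with both was not computed. For Rhox5 the call depends on the spread. The day 6 OE effect minus the day 2 OE effect was -1.83 (SE 1.01, adjusted p = 0.581), and 0.000153 was the adjusted p without dTAG13 replicate 1. Rhox6 and Rhox9 were lower in OE at both days.

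For Dnmt3l the OE effect differed between the days, with a day 6 effect minus day 2 effect of -1.74 (adjusted p = 0.0165). For Tuba3b that difference was 1.92 (adjusted p = 0.0476), from a gene that rose in OE at day 6. Tuba3b entered the test only with the help of day 6 libraries. It averaged 0.221 FPKM in day 2 EV and 0.463 FPKM in day 2 OE cells, where the added 1 understates changes. Its adjusted p was 0.554 with a pseudocount of 0.1, 0.0631 under the replicate block and 0.0548 with no trend. A day difference is thus not shown for Tuba3b. With no trend, Dnmt3l had an adjusted p of 0.0516. Both of these calls were lost in fits without any 1 of the 8 libraries of the OE and EV groups, except that Dnmt3l held without day 2 EV replicate 1.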

How the results depend on the processing

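The settings other than leaving out single libraries include fits of only the groups compared, which use the libraries of those groups alone. Under each of these settings the decrease of Rhox6 and Rhox9 at day 6 passed in both EV and OE cells. With the replicate block the adjusted p in EV and OE cells was 0.0135 and 0.00593 for Rhox6 and 0.00381 and 0.00938 for Rhox9. The block changed no call of the pair. Of the 126 values of the pair under these settings, 117 kept their direction and side of the threshold, 8 came to pass and 1 reversed: the difference of OE effects for Rhox6, 0.15 with a pseudocount of 5. With only the groups compared, OE against EV passed for Rhox6 and Rhox9 at day 2 (-0.95 and -1.29) and at day 6 (-1.21 and -0.73). With sample quality weights it passed for Rhox9 at day 2 (-1.29) and for both at day 6 (-1.21 and -0.73). With a pseudocount of 5, Rhox9 passed with dTAG13 (-0.91, adjusted p = 0.0488). The log2 ratio of Rhox6 to Rhox9 in day 6 OE was -1.39 with a pseudocount of 0.1 and -0.50 with 5. Leaving out single libraries, day 6 EV against day 2 EV ran from -2.48 to -1.52 for Rhox6, and day 6 OE against day 2 OE from -1.77 to -1.21 for Rhox9. Day 6 OE against day 6 EV ran from -1.66 to -0.76 and from -0.75 to -0.72 for Rhox6 and Rhox9. Day 2 OE ran from -1.43 to -0.47 for Rhox6 and from -1.57 to -1.01 for Rhox9, DMSO against EV from 0.57 to 1.53 and from 0.35 to 1.04 for the same genes, dTAG13 from -1.20 to -0.44 for Rhox6 and from -1.41 to -0.61 for Rhox9, and the difference of OE effects for Rhox6 from -0.73 to 0.22. The cause of these changes was not tested. Counts of genes that passed depended on the spread: with only the groups compared and with weights they were 1032 and 1020 in day 2 OE (102 in the fit of all libraries), 3429 and 3897 in day 6 OE against day 6 EV (448), 1172 and 1275 for the difference (28), 5395 and 5581 in day 6 EV against day 2 EV (2863), 7549 and 7577 in day 6 OE against day 2 OE (3890), 197 and 583 in DMSO against EV (47), and 0 and 20 with dTAG13 (1473). The 0 came from limma, with 1258 genes at an unadjusted p under 0.05. Quantile normalization gave 188, 1048, 151 and 81 in day 2 OE, day 6 OE against day 6 EV, the difference and DMSO against EV. Median-ratio scaling gave 173 in day 2 OE and 50 for the difference, no trend 55 and 7, and a pseudocount of 5 gave 53 for the difference. The block gave 16 in DMSO against EV. Crossing the numbers gave 2726 with dTAG13 and 251 in day 6 OE against day 6 EV. Without dTAG13 replicate 1 the counts were 1692, 3046, 1339, 2810, 6286, 7096 and 974 for day 2 OE, day 6 OE against day 6 EV, the difference, dTAG13, day 6 EV against day 2 EV, day 6 OE against day 2 OE and DMSO against EV.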

Other observations

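A list of germline and placenta genes, most of them X-linked and multicopy, was also followed, with 14 of 25 in the table and 9 tested. Xlr5c, Tktl1 and Obox6 met the minimum of 1 FPKM in 2 libraries only with the help of day 6 libraries, so that a day 6 rise was favoured by their entry. Of the other 6, 1 rose in day 6 EV against day 2 EV and 4 rose in day 6 OE against day 2 OE cells, where 13.3% and 17.5% of all genes rose, and 0 fell in either. In OE against EV cells, 2 of the 9 fell at day 2 and 3 fell at day 6 (0.406% and 1.79% of all genes), and 3 fell in DMSO against EV (0.141% of all genes). The 3 at day 6, Xlr3a, Xlr3b and Obox6, lost their calls without any 1 of the 4 libraries (adjusted p of 0.137 to 0.235). Xlr3a fell in day 2 OE against day 2 EV by 2.24 (adjusted p = 0.00185) and in DMSO against EV by 3.31 (adjusted p = 4.77e-05), and it rose in day 6 OE against day 2 OE cells by 1.35 (adjusted p = 0.000703). Its call in day 2 OE was lost without day 2 OE replicate 2 (adjusted p = 0.0529). Xlr genes are near-identical copies, so the division of reads between them is uncertain. With dTAG13, 1 of the 9 fell, where 8.21% of all genes fell. Calls over all genes rose without dTAG13 replicate 1, so the counts that follow cannot be judged by these shares. With dTAG13 replicate 1 left out, 0 rose and 4 fell in day 2 OE against day 2 EV, and 1 rose and 6 fell in day 6 OE against day 6 EV cells.

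Of 10 naive pluripotency markers, 1 rose and 1 fell in day 6 EV against day 2 EV (13.3% and 10.5% of all genes), 4 rose and 2 fell in day 6 OE against day 2 OE (17.5% and 14.7%), 2 rose and 2 fell in day 6 OE against day 6 EV (1.92% and 1.79%), and 3 fell with dTAG13 (8.21%), with 0 in the other comparisons. With dTAG13 replicate 1 left out, 3 rose and 0 fell in day 2 OE against day 2 EV, 6 rose and 2 fell in day 6 OE against day 6 EV, 2 rose and 1 fell in day 6 EV against day 2 EV, and 5 fell with dTAG13. Calls over all genes also rose in that fit, so these counts cannot be judged by the shares above. Of formative epiblast markers, 5 were tested, Dnmt3b and Dnmt3l among them. In day 6 EV against day 2 EV 2 rose and 1 fell (13.3% and 10.5% of all genes). In day 6 OE against day 2 OE 1 rose and 2 fell (17.5% and 14.7%). In day 6 OE against day 6 EV 3 fell (1.79%), and with dTAG13 1 fell (8.21%). A further 1 fell in DMSO against EV (0.141%) and 0 passed in day 2 OE against day 2 EV. Summed formative markers were at 33.0 to 37.8 FPKM in day 6 OE and 77.2 to 85.8 FPKM in day 6 EV libraries.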
